A study of Mus musculus with 6 samples.

Results

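A set of 9 genes of the BAFF, APRIL, CD40 and TNF systems were followed, chosen by symbol from a list: the ligands Tnfsf13b, Tnfsf13 and Tnf and the receptors Tnfrsf13c, Tnfrsf13b, Tnfrsf17, Cd40, Tnfrsf1a and Tnfrsf1b. All 9 were found among the 30733 gene symbols listed in each library. RNA was sequenced from bone marrow cells labelled as hematopoietic stem cells (HSCs), taken from wild-type (WT) mice after total body irradiation with 5 Gy. They had been sorted as MHCII-hi (3 libraries) or MHCII-lo (3 libraries), by MHC class II, which displays peptides to helper T cells. Both groups were irradiated and of the same genotype, so no value here compares irradiated with unirradiated cells. Sort gates and the interval between irradiation and sorting are unknown here. Whether the replicates were different mice is not in the labels, so each p-value covers the spread among 3 libraries a group and that spread may be technical.

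BAFF (from Tnfsf13b) and APRIL (from Tnfsf13) are ligands of the TNF superfamily, made largely by myeloid and stromal cells, that keep B lineage cells alive. BAFF binds BAFF-R (Tnfrsf13c), the main survival receptor of mature B cells, while both ligands bind TACI (Tnfrsf13b) and BCMA (Tnfrsf17), a receptor that long-lived plasma cells depend on in bone marrow. CD40 on B cells and dendritic cells receives help from T cells, and TNF signals through TNFR1 (Tnfrsf1a), which is broadly expressed and carries a death domain, and TNFR2 (Tnfrsf1b), which does not.

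The APRIL and BAFF receptors split. In MHCII-hi cells BCMA RNA was 24.2 times and BAFF-R RNA 11.2 times the MHCII-lo mean, while TACI RNA had overlapping values in the 2 groups and did not pass the test, although it was called slightly higher when libraries were scaled without immunoglobulin genes. Tnf rose 1.64-fold in MHCII-hi cells, whereas APRIL RNA fell 1.63-fold and the RNAs of both TNF receptors were lower by smaller amounts. Levels are in FPKM (fragments counted relative to transcript length and to the library's depth), and can be compared between genes. A gene was tested where its mean over the 6 libraries was at least 1 FPKM, and was called where limma's adjusted p on log2(FPKM + 1) was under 0.05 over 12110 tested genes. Of the 9 genes, 7 were tested. MHCII-hi and MHCII-lo values stood apart without overlap in 6 of these 7, and in 65.8% of all tested genes. By the test Tnf, Tnfrsf13c and Tnfrsf17 rose, Tnfsf13, Tnfrsf1a and Tnfrsf1b fell, and Tnfrsf13b did not pass. Among all tested genes 25.5% rose and 33.1% fell in MHCII-hi cells, so 3 of 7 in each direction is not read as particular to these genes. Tnfrsf13c and Tnfrsf17 reached the minimum only through the MHCII-hi libraries, so their place in that count is no support and a fit without the minimum is given for them. Tnfsf13b and Cd40 were below it.

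**Figure D1:**
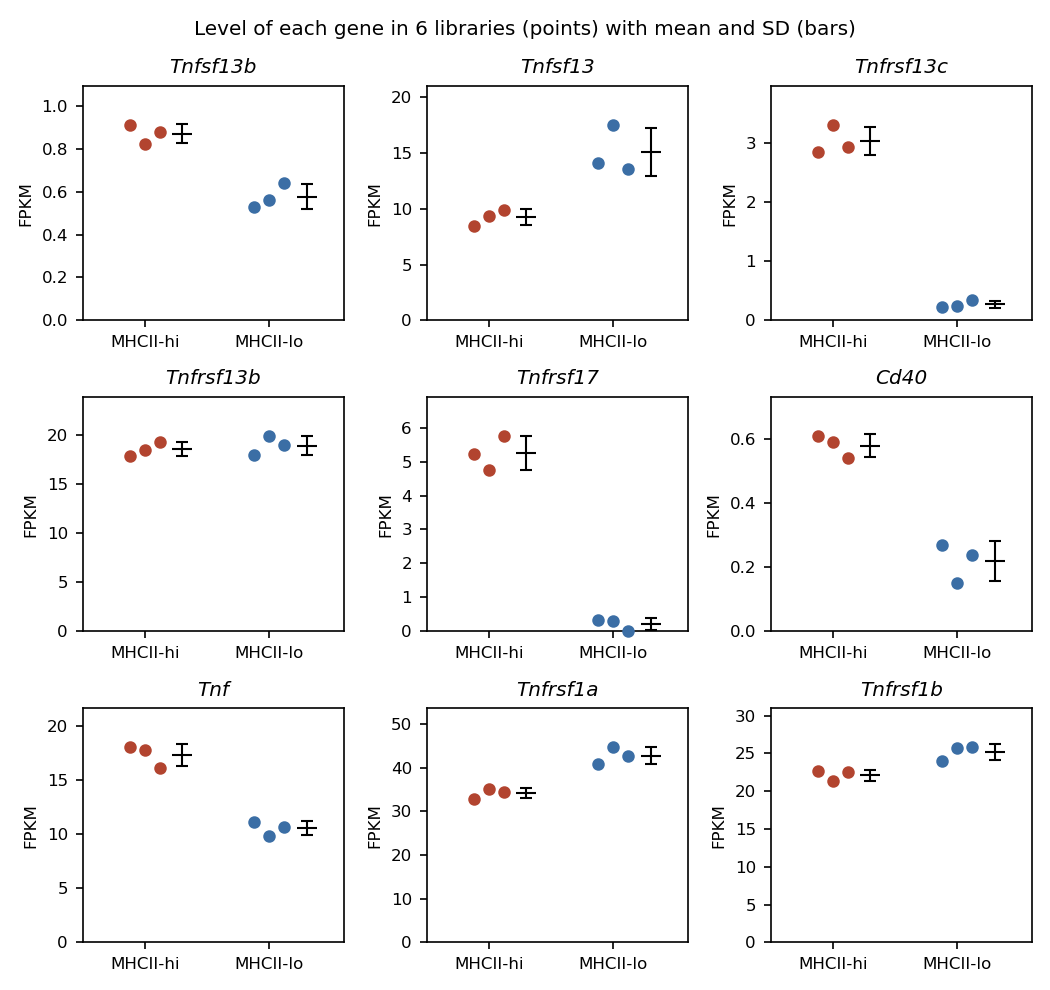
FPKM (vertical axes, linear, from 0, each gene with its own scale) of the 9 genes in the 3 MHCII-hi and 3 MHCII-lo libraries. Points are libraries and bars the mean with SD; the groups overlap for Tnfrsf13b alone, and Tnfrsf17 and Tnfrsf13c lie below 0.4 FPKM in every MHCII-lo library.

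The bases upstream of the 3 genes that rose are shown because these RNAs moved in the same direction, and a reader may want to compare their promoters. Each run is the 250 bases before the annotated start, read 5′ to 3′ on the gene's strand, from RefSeq on GRCm38.p6, and capitals mark TATAAA.
Tnfrsf17, chr16:11313559-11313808, plus strand: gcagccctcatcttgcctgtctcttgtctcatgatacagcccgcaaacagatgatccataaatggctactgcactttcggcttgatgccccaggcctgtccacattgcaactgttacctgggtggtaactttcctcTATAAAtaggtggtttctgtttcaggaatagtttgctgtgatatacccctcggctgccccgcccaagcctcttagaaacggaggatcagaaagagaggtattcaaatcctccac
Tnfrsf13c, chr15:82224381-82224630, minus strand: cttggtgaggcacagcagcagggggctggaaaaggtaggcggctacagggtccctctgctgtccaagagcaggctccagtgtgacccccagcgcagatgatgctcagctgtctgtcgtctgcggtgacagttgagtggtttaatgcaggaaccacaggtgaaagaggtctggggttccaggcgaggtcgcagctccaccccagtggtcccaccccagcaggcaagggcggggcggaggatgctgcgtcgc
Tnf, chr17:35202008-35202257, minus strand: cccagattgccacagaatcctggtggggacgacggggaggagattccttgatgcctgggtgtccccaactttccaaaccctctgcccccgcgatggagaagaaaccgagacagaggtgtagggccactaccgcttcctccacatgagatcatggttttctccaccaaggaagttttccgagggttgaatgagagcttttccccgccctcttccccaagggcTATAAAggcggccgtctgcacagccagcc
Windows of 250 bases before to 50 bases after the start were searched on both strands for a kappaB consensus, for the octamer ATGCAAAT of B lineage promoters, for the PU.1 type motif GAGGAAGT, and for TATAAA, which was added after the sequences had been seen. The table held windows for 8 of the 9 genes, all but Cd40. TATAAA stood 29 to 24 bases before the start of Tnf and 114 to 109 bases before that of Tnfrsf17, and in none of the other 6 genes, against 13.6% of all 32851 windows. The kappaB consensus is held by 4.51% of all windows, the octamer by 1.74% and the PU.1 type motif by 3.2%, and none of the 8 genes' windows held these letters.

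BCMA (Tnfrsf17, chr16:11313812-11320074, plus strand, a gene of 3 exons on GRCm38 in GENCODE M21) was near the limit of detection in MHCII-lo cells. Its level was 5.22, 4.75 and 5.75 FPKM in the MHCII-hi libraries, against 0.35, 0.3 and 0 FPKM in the MHCII-lo libraries. Every MHCII-hi library lay far above every MHCII-lo library, 1 of which is listed at 0. The change was 2.37 ± 0.13 on the log2(FPKM + 1) scale (SE, n = 3 each; limma adjusted p = 1.15e-05), a scale that understates changes of low genes: with a pseudocount of 0.1 it was 4.34. Since the gene was tested only because of its MHCII-hi level, the fit without a minimum does not rest on that choice: limma adjusted p = 9.44e-05 over 27171 genes, of which 14.6% were called higher. The values correspond to an estimated 80 to 138 fragments in MHCII-hi libraries and 0 to 6 in MHCII-lo libraries, so the size of the ratio is loosely fixed by few MHCII-lo fragments. In bulk libraries such as these, fewer cells of a type and less RNA per cell cannot be told apart.

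BAFF-R (Tnfrsf13c, chr15:82221743-82224369, minus strand) followed the same direction at a lower level. It stood at 2.86, 3.31 and 2.94 FPKM in MHCII-hi libraries and at 0.23, 0.24 and 0.34 FPKM in MHCII-lo libraries. The groups did not overlap, and the lowest MHCII-hi value was well above the highest MHCII-lo value. The log2 change was 1.67 ± 0.08 (SE; limma adjusted p = 6.79e-06), or 3.09 with a pseudocount of 0.1. This gene too was tested only through MHCII-hi, and without the minimum its limma adjusted p was 5.51e-05.

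TACI (Tnfrsf13b, chr11:61126755-61149372, plus strand) behaved otherwise. The 3 MHCII-hi libraries held 17.82, 18.5 and 19.28 FPKM, and the 3 MHCII-lo libraries 17.91, 19.87 and 18.92 FPKM. The groups overlapped, and the log2 difference was -0.03 with a 95% interval of -0.14 to 0.09 (limma adjusted p = 0.659), which leaves room for a small change. Scaled to FPKM without immunoglobulin genes the difference turned to 0.14 and was called (adjusted p = 0.0408). TACI was also the most abundant of the 3 receptors in both groups. Relative to it, BCMA was 0.257 to 0.298 in MHCII-hi libraries and 0 to 0.0195 in MHCII-lo libraries, and BAFF-R was 0.152 to 0.179 in MHCII-hi libraries and 0.0121 to 0.0180 in MHCII-lo libraries. These ratios of FPKM do not change when a library is multiplied by a factor. Neither pair of ranges overlapped (two-sided exact permutation test of the log2(FPKM + 1) difference between the 2 genes, p = 0.1 for each, the smallest that 3 against 3 allows).

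Cd40 (chr2:165055627-165072948, plus strand), the B cell and dendritic cell receptor for the T cell ligand CD40L, was low in every library. It measured 0.61, 0.59 and 0.54 FPKM in MHCII-hi libraries and 0.27, 0.15 and 0.24 FPKM in MHCII-lo libraries. All MHCII-hi values were above all MHCII-lo values, with a ratio of means of 2.64, from an estimated 36 to 59 fragments in MHCII-hi libraries and 11 to 18 in MHCII-lo libraries. Being under 1 FPKM it was not tested; a fit without the minimum called it higher (log2 difference 0.37, limma adjusted p = 0.00497, over the same 27171 genes). Its ligand gene Cd40lg averaged 0.923 ± 0.355 FPKM in MHCII-hi and 0.26 ± 0.0917 FPKM in MHCII-lo libraries (SD, n = 3 each) and was below the minimum too.

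Of the 2 survival ligands, APRIL was tested and BAFF was not. BAFF (Tnfsf13b, chr8) had 0.91, 0.82 and 0.88 FPKM in MHCII-hi libraries, against 0.53, 0.56 and 0.64 FPKM in MHCII-lo libraries. Its MHCII-hi values were all higher, by a ratio of means of 1.51, but the gene was under the minimum; without the minimum its log2 difference was 0.25 (limma adjusted p = 0.0436).

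APRIL (Tnfsf13, chr11:69682846-69685784, minus strand) was lower in MHCII-hi cells. Its RNA was at 8.47, 9.37 and 9.94 FPKM in MHCII-hi libraries and at 14.15, 17.51 and 13.61 FPKM in MHCII-lo libraries. No MHCII-hi library reached the lowest MHCII-lo one, and replicate 2 of the MHCII-lo group was the highest. The log2 change was -0.64 ± 0.10 (SE; limma adjusted p = 0.00148), and -0.54 without that library (adjusted p = 0.00165).

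The APRIL locus holds 2 more annotated RNAs that bear on this value. Tnfsfm13 is a read-through gene on the same strand that joins the neighbouring Tnfsf12 (TWEAK) with Tnfsf13, so the division of reads between it and Tnfsf13 is uncertain. It averaged 6.76 ± 0.575 FPKM in MHCII-hi and 8.62 ± 0.411 FPKM in MHCII-lo libraries (SD, n = 3 each) and also fell (log2 change -0.31, limma adjusted p = 0.00583). The 2 added together were at 16.0 ± 0.947 FPKM in MHCII-hi and 23.7 ± 2.19 FPKM in MHCII-lo libraries, on the log2 scale -0.54 ± 0.07 (SE; limma adjusted p = 7.26e-04 in the same fit). The antisense gene Tnfsf13os lay at 1.69 to 2.48 FPKM in MHCII-hi and 1.42 to 1.9 FPKM in MHCII-lo libraries. The library kit marks strand, but whether quantification used strand is not stated in these sources.

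Tnf (chr17:35199381-35202007, minus strand), the inflammatory cytokine, was higher in MHCII-hi cells. It stood at 18.02, 17.73 and 16.1 FPKM in MHCII-hi libraries, against 11.11, 9.86 and 10.63 FPKM in MHCII-lo libraries. The groups did not overlap, and the log2 change was 0.66 ± 0.06 (SE; limma adjusted p = 1.03e-04). Its neighbours in the same gene cluster are Lta, 1157 bases away, and Ltb, 3060 bases away, which make the lymphotoxin chains. Lta was barely detected, at 0.19 ± 0.173 FPKM in MHCII-hi and 0.0467 ± 0.0503 FPKM in MHCII-lo libraries, and Ltb, at 8 ± 0.955 FPKM in MHCII-hi and 6.94 ± 0.735 FPKM in MHCII-lo libraries, did not pass (log2 difference 0.18, limma adjusted p = 0.157).

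TNFR1 (Tnfrsf1a, chr6:125349362-125362484, plus strand) was the most abundant of the 9 RNAs in both groups. It measured 32.96, 35.14 and 34.43 FPKM in MHCII-hi libraries and 40.88, 44.76 and 42.73 FPKM in MHCII-lo libraries. The groups did not overlap, and the log2 change was -0.32 ± 0.04 (SE; limma adjusted p = 7.02e-04). TNFR2 (Tnfrsf1b, chr4:145213463-145246870, minus strand) had 22.63, 21.3 and 22.47 FPKM in MHCII-hi libraries and 23.95, 25.69 and 25.83 FPKM in MHCII-lo libraries. Its groups were close but did not overlap; the fall of -0.18 ± 0.04 on the log2 scale (SE; limma adjusted p = 0.00952) was not called under another scaling, given next. The ratio of Tnf to Tnfrsf1a, which multiplying a library by a factor leaves as it is, was 0.468 to 0.547 in MHCII-hi libraries and 0.220 to 0.272 in MHCII-lo libraries. TNFR1 over TNFR2 was 1.46 to 1.65 in MHCII-hi libraries and 1.65 to 1.74 in MHCII-lo libraries. The first pair of ranges was far apart and the second only just separate (two-sided exact permutation test, p = 0.1 for each, the smallest possible).

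FPKM depends on what else is in a library, and the groups differed in immunoglobulin RNA. It made up 23.4% to 23.7% of summed FPKM in MHCII-hi libraries and 0.493% to 0.502% in MHCII-lo libraries. With FPKM weighted by exon length, its share was 5.53% to 5.57% in MHCII-hi and 0.104% to 0.106% in MHCII-lo libraries. Rescaling each library to its summed FPKM without the 314 immunoglobulin genes moved the median gene by 0.15 on the log2 scale, and 69.9% of called genes were then higher in MHCII-hi cells, against 43.5% as deposited. Under it Tnfrsf17, Tnfrsf13c and Tnf rose and Tnfsf13 and Tnfrsf1a fell as before, the log2 change of Tnfrsf1a shrinking to -0.14 (limma adjusted p = 0.0241). Tnfrsf1b lost its call, at -0.01 (adjusted p = 0.904), and the 0.14 of Tnfrsf13b given above is close to the shift of the median gene. Scaling to FPKM times exon length without these genes, an alternative chosen after seeing the data, moved the median by 0.08, with 56.7% of calls higher. It left Tnfrsf1b at -0.09 (adjusted p = 0.0896) and Tnfrsf13b at 0.06 (adjusted p = 0.319).

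**Figure D2:**
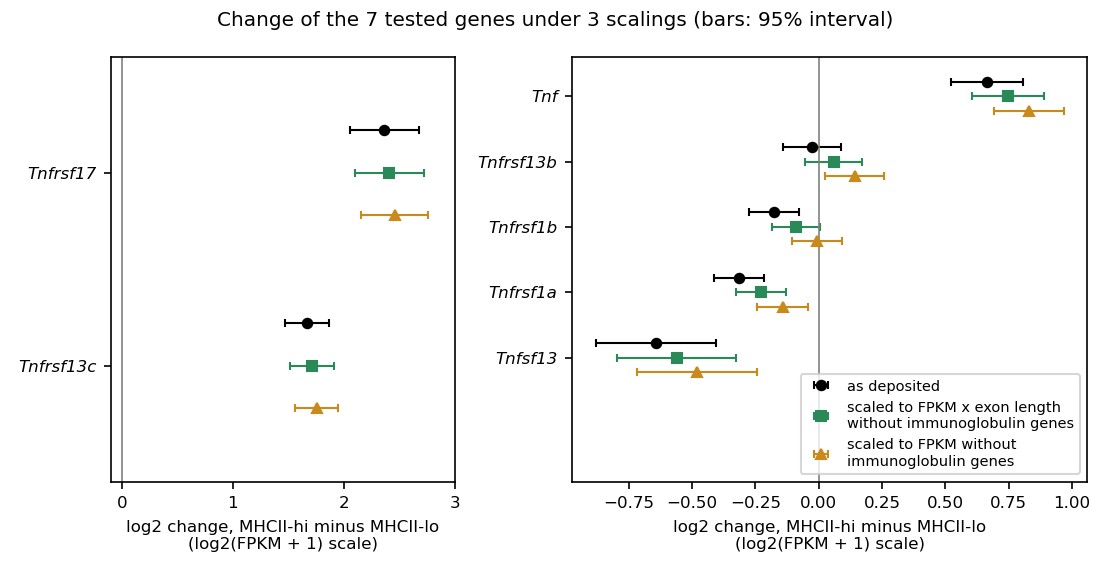
Log2 change (MHCII-hi minus MHCII-lo, log2(FPKM + 1) scale, horizontal axes, with a wider range in the left panel) of the 7 tested genes as deposited and under 2 scalings without immunoglobulin genes; bars are 95% intervals from limma, n = 3 libraries each. Tnfrsf17, Tnfrsf13c and Tnf stay right of 0 and Tnfsf13 and Tnfrsf1a left of it. Tnfrsf1b lies left of 0 as deposited (-0.18) and moves towards it under the 2 scalings, while Tnfrsf13b changes sign.

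Within a group the 9 genes kept a clear order. In MHCII-hi cells mean FPKM descended through Tnfrsf1a, Tnfrsf1b, Tnfrsf13b, Tnf, Tnfsf13, Tnfrsf17, Tnfrsf13c, Tnfsf13b and Cd40, and of neighbours in this order the library ranges of Tnfrsf13b and Tnf overlapped. In MHCII-lo cells the first 3 places were the same, then came Tnfsf13, Tnf and Tnfsf13b, and the ranges of Tnfrsf13c, Cd40 and Tnfrsf17 ran into each other at the bottom. Genes whose log2 values deviated most like a member's were sought by Euclidean distance over the 6 libraries. The search covered the tested genes except immunoglobulin genes, numbered predicted genes and genes with Rik clone names. The nearest genes were Hes1 and Tent5c for Tnfrsf17 and Egr1 and H2-Q6 for Tnfrsf13c. For Tnfrsf13b they were Mafg and Tmco4, for Tnf H2-DMb2 and Ccng2, and for Tnfsf13 Ndufa12-ps and Galk1. Prmt7 and Med17 were nearest to Tnfrsf1a, and Tmbim6 and Fubp1 to Tnfrsf1b.

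Lineage markers moved with several of these RNAs. All 4 class II genes used to check the sort rose, with a summed level of 563 to 581 FPKM in MHCII-hi and 21.2 to 21.5 FPKM in MHCII-lo libraries. The 12 B cell markers summed to 63.0 to 64.4 FPKM in MHCII-hi and 7.27 to 9.17 FPKM in MHCII-lo libraries; 5 passed the minimum, 4 of them only through MHCII-hi, and 11 of 12 were under 0.5 FPKM in every MHCII-lo library, with Cr2 at 0 in all 3. Cd79a, a B cell receptor chain, averaged 24.3 ± 0.690 FPKM in MHCII-hi and 0.280 ± 0.145 FPKM in MHCII-lo libraries (SD, n = 3 each). Cd79b stood at 19.4 ± 2.50 FPKM in MHCII-hi and 7.47 ± 0.556 FPKM in MHCII-lo libraries, and Fcrla at 6.18 ± 0.410 FPKM in MHCII-hi and 0.210 ± 0.231 FPKM in MHCII-lo libraries.

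Plasma cell markers were the most abundant of the B lineage lists. Their 12 genes summed to 1569 to 1581 FPKM in MHCII-hi and 110 to 114 FPKM in MHCII-lo libraries; 11 rose and 1 (Fkbp11) fell, but 7 of those that rose passed the minimum only through MHCII-hi. Jchain, which joins IgM and IgA units, made up most of this sum in MHCII-hi libraries, at 1342 ± 13.0 FPKM in MHCII-hi and 14.2 ± 1.45 FPKM in MHCII-lo libraries. These levels stood beside the higher Tnfrsf17 and Tnfrsf13c, and their part in those differences was not tested. The ratio of means was 86.9 for Cd79a and 94.2 for Jchain, against 24.2 for Tnfrsf17, 11.2 for Tnfrsf13c and 0.981 for Tnfrsf13b. The Cd79a ratio rests on 0.14 to 0.43 FPKM in MHCII-lo libraries. Other markers of these lists changed far less, as Cd79b did, or fell, as Fkbp11 did. Xbp1 was at 75.32 to 81.05 FPKM in MHCII-hi and 64.42 to 65.09 FPKM in MHCII-lo libraries. Tnfrsf17 and Tnfrsf13c thus lay between the extremes of these lists.

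Markers of myeloid cells differed as well. All 12 neutrophil markers fell, with a summed level of 15548 to 15942 FPKM in MHCII-hi and 37739 to 38424 FPKM in MHCII-lo libraries; S100a9 alone averaged 6575 ± 127 FPKM in MHCII-hi and 16860 ± 163 FPKM in MHCII-lo libraries. The 12 monocyte and macrophage markers summed to 1896 to 1951 FPKM in MHCII-hi and 2825 to 2859 FPKM in MHCII-lo libraries, 5 rising and 5 falling. Most of each sum was Lyz2, at 1729 to 1782 FPKM in MHCII-hi and 2638 to 2669 FPKM in MHCII-lo libraries. Of these 12 markers, 7 were higher in every MHCII-hi library than in any MHCII-lo library, and 5 were lower. All 8 eosinophil markers rose. Of 7 tested conventional dendritic cell markers 4, and of 7 tested plasmacytoid ones 3, passed the minimum only through MHCII-hi. Conventional dendritic cell markers summed to 231 to 236 FPKM in MHCII-hi and 168 to 178 FPKM in MHCII-lo libraries. Most of that sum was Cst3, at 180 to 186 FPKM in MHCII-hi and 157 to 167 FPKM in MHCII-lo libraries. All 10 conventional markers were higher in every MHCII-hi library than in any MHCII-lo library. Flt3 was at 14.8 to 15.4 FPKM in MHCII-hi and 6.01 to 6.5 FPKM in MHCII-lo libraries. Cd209a was at 15.9 to 16.9 FPKM in MHCII-hi and 0.51 to 0.76 FPKM in MHCII-lo libraries. Plasmacytoid markers summed to 95.6 to 105 FPKM in MHCII-hi and 50.3 to 52.0 FPKM in MHCII-lo libraries. These lists moved beside Tnf, Tnfsf13, Cd40 and the TNF receptors, and their part there was not tested. Of 12 stem cell markers, the most abundant being Ly6a (Sca-1), Cd34 and Kit, 5 rose, 1 did not pass and 6 were under the minimum. The list summed to 71.7 to 77.0 FPKM in MHCII-hi and 29.3 to 30.2 FPKM in MHCII-lo libraries. Most of that difference was Ly6a, at 33.15 to 38.53 FPKM in MHCII-hi and 2.38 to 2.72 FPKM in MHCII-lo libraries. Mecom, Fgd5 and Slamf1, which mark HSCs, were under 0.5 FPKM in every library, so these genes do not bear out the label HSC for the bulk of the RNA.

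**Figure D3:**
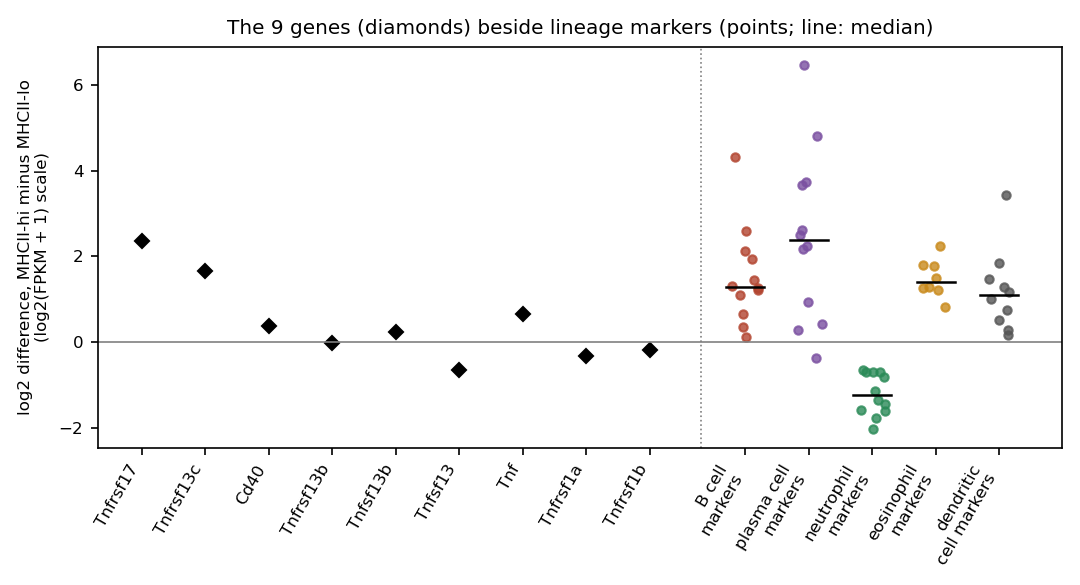
Log2 difference (MHCII-hi minus MHCII-lo, log2(FPKM + 1) scale, vertical axis) of the 9 genes (diamonds) and of the genes of 5 marker lists (points, spread sideways for visibility; lines are medians), genes below the minimum included. Tnfrsf17 and Tnfrsf13c lie within the wide ranges of the B cell, plasma cell and dendritic cell markers. The plasma cell range, from Fkbp11 below 0 up to Jchain, holds all of the 9 genes but Tnfsf13. Tnfrsf13b lies near 0, and all neutrophil markers lie below 0.

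The other ligands and receptors of the superfamily were mostly low: 10 of 15 ligands and 12 of 22 receptors were under the minimum. Of 5 tested ligands, Fasl, Tnfsf9 (4-1BBL) and Tnfsf10 (TRAIL) rose and Tnfsf14 (LIGHT) fell, with a median log2 change of 0.42 against -0.04 over all tested genes; Fasl and Tnfsf9 passed the minimum only through MHCII-hi, so this count is no support. Fasl, the death ligand of cytotoxic cells, averaged 1.93 ± 0.229 FPKM in MHCII-hi and 0.650 ± 0.0608 FPKM in MHCII-lo libraries (SD, n = 3 each; limma adjusted p = 0.00116 without the minimum). Among 10 tested receptors 4 rose and 3 fell, with a median of -0.08 that turned to 0.07 when libraries were scaled to FPKM without immunoglobulin genes. Over all tested genes 25.5% rose and 33.1% fell, so this count is not read as particular to these receptors. Tnfrsf12a, the TWEAK receptor, was at 3.83 ± 0.174 FPKM in MHCII-hi and 1.27 ± 0.245 FPKM in MHCII-lo libraries and rose (limma adjusted p = 7.78e-05). Tnfrsf21 (DR6) fell, with 17.3 ± 0.172 FPKM in MHCII-hi and 24.7 ± 0.646 FPKM in MHCII-lo libraries. Tnfrsf26 fell as well, with 7.04 ± 0.635 FPKM in MHCII-hi and 9.83 ± 0.572 FPKM in MHCII-lo libraries. Other receptor genes share a chromosome 6 cluster with Tnfrsf1a. Ltbr, the lymphotoxin receptor, lies 35476 bases away and fell (14.8 ± 1.5 FPKM in MHCII-hi, 18.6 ± 0.239 FPKM in MHCII-lo), a call lost when libraries were scaled to FPKM without immunoglobulin genes. Cd27, a lymphocyte costimulatory receptor, lies 112351 bases away and rose (7.10 ± 0.114 FPKM in MHCII-hi, 3.72 ± 0.485 FPKM in MHCII-lo). Of 10 tested T and NK cell markers 9 rose, 2 having passed the minimum only through MHCII-hi. The list summed to 219 to 229 FPKM in MHCII-hi and 169 to 177 FPKM in MHCII-lo libraries. Most of each sum was Nkg7, whose values overlapped (144 to 151 FPKM in MHCII-hi, 146 to 154 FPKM in MHCII-lo). The other 11 markers were higher in every MHCII-hi library than in any MHCII-lo library. Trbc2, for example, was at 15.55 to 17.15 FPKM in MHCII-hi and 5.31 to 6.2 FPKM in MHCII-lo libraries. The part of these markers in the values of Fasl and Cd27 was not tested.

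The adaptors, kinases and ubiquitin ligases that act at these receptors formed a list of 29. Of 28 tested genes 14 rose, 3 fell and 11 did not pass, with a median log2 change of 0.13 (-0.04 over all tested genes, of which 25.5% rose and 33.1% fell). Under scaling to FPKM without immunoglobulin genes 20 rose and 1 fell, where 40.6% of all tested genes rose and 17.5% fell. Of those that rose, Traf5 and Traf3ip2 passed the minimum only through MHCII-hi. Birc2 (cIAP1), a ubiquitin ligase recruited to TNF receptors, averaged 14.3 ± 0.525 FPKM in MHCII-hi and 9.33 ± 0.252 FPKM in MHCII-lo libraries (SD, n = 3 each; limma adjusted p = 3.75e-05). Birc3 (cIAP2), the kinase gene Ikbkb and Traf5 rose as well, with ratios of means of 1.32, 1.31 and 2.34. Tradd, the adaptor that binds the death domain of TNFR1, fell to 4.80 ± 0.225 FPKM in MHCII-hi libraries, against 6.86 ± 0.811 FPKM in MHCII-lo libraries (limma adjusted p = 0.00308). Traf2 and Traf3, adaptors of TNF superfamily receptors, did not pass, with log2 differences of 0.03 and 0.11. Traf3 was called higher under both scalings without immunoglobulin genes.

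All 5 NF-kB subunit genes, the factors that these receptors activate, rose, with a median log2 change of 0.59 (25.5% of all tested genes rose). All 5 rose under each scaling tried, where 20.9% to 40.6% of all tested genes rose. Relb passed the minimum only through MHCII-hi. Rel (c-Rel) reached 21.1 ± 0.663 FPKM in MHCII-hi libraries, against 7.99 ± 0.0404 FPKM in MHCII-lo libraries. Nfkb2, the subunit of the pathway driven by BAFF-R and CD40, averaged 8.62 ± 0.205 FPKM in MHCII-hi and 4.20 ± 0.265 FPKM in MHCII-lo libraries. Relb, its partner, rose at a low level, 1.54 ± 0.260 FPKM in MHCII-hi and 0.680 ± 0.0200 FPKM in MHCII-lo, and Nfkb1 rose least, with a ratio of means of 1.15.

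The genes that TNF is known to induce were also described as a list. Of 23 tested, 16 rose and 5 fell, with a median log2 change of 0.60, against 25.5% rising, 33.1% falling and a median of -0.04 over all tested genes. Under the 3 other scalings 15 to 18 rose and 4 to 5 fell, where 20.9% to 40.6% of all tested genes rose and 17.5% to 39.4% fell. Tnfaip3 (A20), a feedback inhibitor of TNF receptor signalling, averaged 91.2 ± 1.13 FPKM in MHCII-hi and 29.8 ± 0.283 FPKM in MHCII-lo libraries (limma adjusted p = 1.45e-08). Nfkbia, the inhibitor IkB alpha, was at 194.6 ± 3.13 FPKM in MHCII-hi and 76.5 ± 1.77 FPKM in MHCII-lo libraries, and Nfkbiz rose with a ratio of means of 1.77. Il1b went the other way, at 10.3 ± 0.366 FPKM in MHCII-hi and 52.9 ± 0.819 FPKM in MHCII-lo libraries (limma adjusted p = 1.74e-08), beside the lower neutrophil markers, whose part was not tested.

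Regulators of Tnf RNA spanned a wide range of levels, with Zfp36, Zfp36l2 and Mapkapk2 the most abundant of the list. Of 9 tested, 5 rose and 3 fell, against 25.5% rising and 33.1% falling over all tested genes. The 3 falls were all lost when libraries were scaled to FPKM without immunoglobulin genes. Zfp36 (tristetraprolin), which binds Tnf RNA and speeds its decay, was at 348 ± 12.4 FPKM in MHCII-hi and 196 ± 3.75 FPKM in MHCII-lo libraries (limma adjusted p = 1.42e-06). Its relative Zfp36l2, at 269 ± 6.51 FPKM in MHCII-hi and 150 ± 3.47 FPKM in MHCII-lo libraries, also rose. So did Zc3h12a and Rc3h1, whose products Regnase-1 and Roquin-1 act on inflammatory RNAs, with ratios of means of 2.78 and 1.47. The RNAs that promote decay and Tnf RNA itself were thus higher in the same libraries.

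Of 8 tested enzymes and cofactors that cleave these ligands and receptors, 1 rose, 2 fell and 5 did not pass. Over all tested genes 25.5% rose and 33.1% fell. Adam10 fell (33.9 ± 0.609 FPKM in MHCII-hi, 43.0 ± 1 FPKM in MHCII-lo; limma adjusted p = 8.87e-05). Adam17, which releases TNF and both TNF receptors from the membrane, was at 10.04 ± 0.0265 FPKM in MHCII-hi and 11.0 ± 0.389 FPKM in MHCII-lo libraries; its fall (log2 change -0.12) was lost under both scalings without immunoglobulin genes. Furin, the protease that processes BAFF and APRIL, rose with a ratio of means of 1.15.

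Genes linked to survival signals from BAFF and APRIL changed in both directions, 6 rising, 3 falling and 2 not passing of 11 tested. Over all tested genes 25.5% rose and 33.1% fell. Sdc1 (syndecan-1), a proteoglycan of plasma cells whose sugar chains bind APRIL, passed the minimum only through MHCII-hi and is in the plasma cell list too. It averaged 5.29 ± 0.157 FPKM in MHCII-hi and 0.393 ± 0.00577 FPKM in MHCII-lo libraries (SD, n = 3 each; limma adjusted p = 5.63e-06 without the minimum). Bcl2 averaged 6.61 ± 0.196 FPKM in MHCII-hi and 3.03 ± 0.0656 FPKM in MHCII-lo libraries, and the kinase gene Pim1 111 ± 1.52 FPKM in MHCII-hi and 71.0 ± 1.35 FPKM in MHCII-lo libraries. Mcl1, on which plasma cells depend downstream of BCMA, fell to 175 ± 2.82 FPKM in MHCII-hi libraries, against 208 ± 2.10 FPKM in MHCII-lo libraries. The size of the Mcl1 change depended on the scaling: its log2 change was -0.25 as deposited, -0.07 and -0.16 under the scalings without immunoglobulin genes (FPKM and FPKM times exon length), and -0.62 under quantile scaling, with a call in each.

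**Figure D4:**
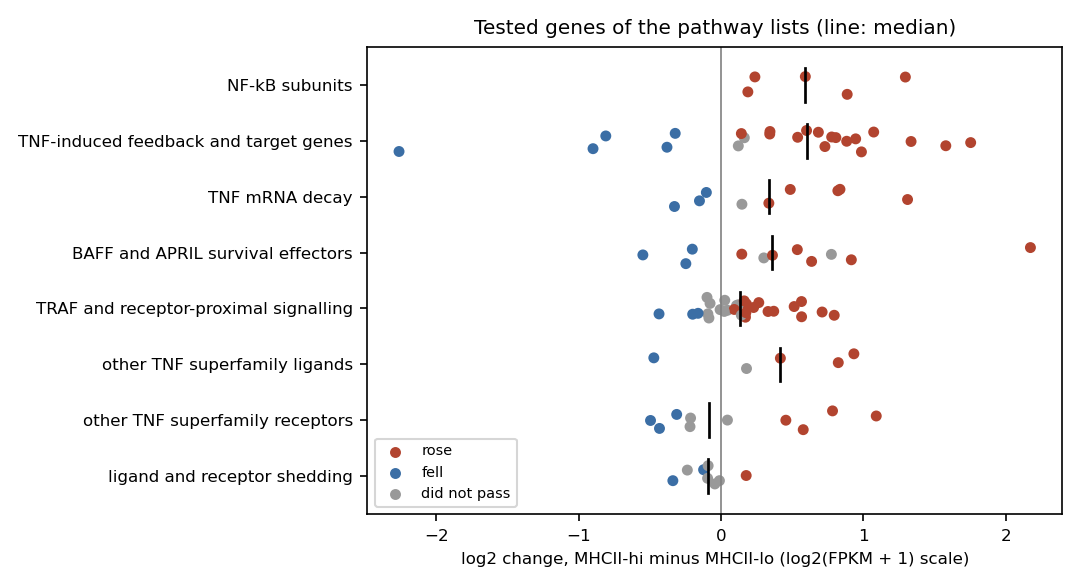
Log2 change (MHCII-hi minus MHCII-lo, log2(FPKM + 1) scale, horizontal axis) of the tested genes in 8 pathway lists, coloured by whether they rose, fell or did not pass at a limma adjusted p of 0.05; black lines are list medians. All NF-kB subunit genes and most TNF target genes lie right of 0, with Il1b the lowest point.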

How the data were processed

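RNA from sorted cells was made into stranded mRNA libraries with a TruSeq kit, per the labels' protocols. Per the submitters' processing notes, fastp, HISAT2 and StringTie were used with GRCm38 (mm10); their versions and the annotation are not stated. The FPKM values were made by the authors with these tools, as deposited in 1 table for each library, per the labels and files; no header names the unit, which was read from the spacing and sums of the values. Of 30803 rows, 70 that shared a symbol with a higher row were dropped. Depth was estimated from the lowest values in single-exon genes of 200 to 1000 bases, at 2.06e+07 to 3.24e+07 fragments in MHCII-hi and 2.26e+07 to 2.46e+07 in MHCII-lo libraries. The 6 libraries were grouped by their titles and compared as MHCII-hi minus MHCII-lo with limma (3.58.1, under R 4.3.3) applied to log2(FPKM + 1) using a mean-variance trend, two-sided, over genes of mean 1 FPKM or more, with Benjamini-Hochberg adjustment over all of them. The fit was tested on simulated data. Genes named beside the 9 were up to 4 with the smallest p among those called per pathway list, those binding a member's product, up to 3 of the most abundant per marker list, defining markers at or near 0, and the 2 nearest in pattern; Fkbp11, Traf3ip2, Mecom, Fgd5 and Slamf1 were named after their values were seen. Gene IDs and coordinates come from GENCODE M21 on GRCm38, where 98.1% of tested symbols were found. Members and lists were chosen with earlier results of these data known. Alternatives were leaving out each library, adding a replicate block, other pseudocounts, minimums and moderation, quantile scaling and scalings without immunoglobulin genes.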

Additional observations from a re-analysis of the deposited data

How the results depend on the processing

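With each library left out in turn, 2716 to 2922 genes were higher and 3583 to 3693 lower in MHCII-hi cells, and 3 to 3 members were called higher and 3 to 3 lower. A minimum of 5 FPKM left 1792 genes and 1 member called higher, since Tnfrsf13c and Tnfrsf17 were no longer tested, and no minimum gave 5 members, adding Cd40 and Tnfsf13b. Scaling to summed FPKM without immunoglobulin genes gave 4934 higher and 2127 lower, and quantile scaling 2536 higher and 4773 lower; the cause of these moves was not tested further. The log2 difference of Tnfrsf13b ranged over -0.0626 to 0.0086 with a library left out, changing sign without replicate 1 of MHCII-hi (0.0002) or replicate 2 of MHCII-lo (0.0086), and to 0.1421 and 0.059 under the scalings without immunoglobulin genes. Tnfsf13, Tnfrsf13c, Tnfrsf17, Tnf and Tnfrsf1a kept their direction and call in every alternative that tested them. Same-numbered libraries did not deviate together (correlations -0.09 to -0.0036, against -0.03 to 0.07 for other pairs). So few correlations cannot decide whether same-numbered libraries shared a mouse or a batch. A replicate block gave 2856 genes higher and 3782 lower, with 3 members in each direction. Values under about 0.5 FPKM rest on few fragments, which limits the folds of Tnfrsf17, Tnfrsf13c and Cd40.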

Other observations

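Some genes of the ligand and TRAF lists below the minimum, chosen after their values were seen, were higher in every MHCII-hi library than in any MHCII-lo library. Traf1, an adaptor of TNFR2 and CD40 that NF-kB induces, averaged 1.01 ± 0.123 FPKM in MHCII-hi and 0.217 ± 0.00577 FPKM in MHCII-lo libraries (SD, n = 3 each). Tnfsf11 (RANKL), the ligand that drives osteoclast formation, was at 0.533 ± 0.170 FPKM in MHCII-hi and 0.0600 ± 0.0721 FPKM in MHCII-lo libraries, and Tnfsf8 (CD30L) at 1.13 ± 0.0306 FPKM in MHCII-hi and 0.453 ± 0.0681 FPKM in MHCII-lo libraries. None was tested.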
